A study of Mus musculus with 3647 samples.

Results

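NMDA and kainate receptors are glutamate-gated cation channels, and 10 of their subunit genes were followed through 3 expression tables of mouse brain, each with 23420 genes. The NMDA receptor genes were Grin1, Grin2a, Grin2b, Grin2c, Grin2d and Grin3a, and the kainate receptor genes were Grik1, Grik2, Grik3 and Grik4. They were chosen by name, and all 10 were present in every table. The series, on a molecular gradient in the thalamic reticular nucleus (TRN), lists 3647 samples, each 1 nucleus or, for Patch-seq, 1 recorded cell, and 2653 had values in the tables used here. TRN nuclei were sorted on a DNA dye together with NeuN, a protein of neuronal nuclei (8 plates), or on the dye without NeuN selection (13 plate names). Tissue next to the TRN gave 240 nuclei with values, and nuclei sorted on the dye and GFP came from hippocampus (440, on 7 plates), M2 cortex (3 plates), somatosensory cortex (2 plates) and striatum (71, on 1 plate). A further 43 hippocampal nuclei had no sort label, and 95 TRN samples were collected by Patch-seq, in which the contents of a recorded cell are taken up for sequencing. The labels give no treatment, genotype, strain, age or animal, and do not name the mouse line or promoter behind the GFP.

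An NMDA receptor is built from the obligatory subunit encoded by Grin1 together with Grin2 subunits, which set its kinetics and its block by magnesium, or with Grin3 subunits. Receptors with Grin2c or Grin2d are less sensitive to magnesium block than those with Grin2a or Grin2b, and Grin3a lowers calcium permeability. Grik1, Grik2 and Grik3 encode the low-affinity kainate receptor subunits, which can form channels without other subunits, whereas the high-affinity subunit encoded by Grik4 needs one of them. The TRN is a shell of GABAergic neurons that receives glutamatergic input from cortex and thalamus and inhibits the thalamus.

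In the GENCODE vM21 annotation (GRCm38, the mm10 build) all 10 genes are protein-coding. Grin1 lies at chr2:25291181-25319187, Grin2a at chr16:9567898-9995560, Grin2b at chr6:135713233-136173511, Grin2c at chr11:115249169-115267243, Grin2d at chr7:45831883-45878378 and Grin3a at chr4:49661611-49845744. Grik1 lies at chr16:87895900-88290265, Grik2 at chr10:49094833-49788766, Grik3 at chr4:125490700-125714173 and Grik4 at chr9:42518135-42944493. Grik3 is on the plus strand and the others are on the minus strand. Genes on the opposite strand overlap exons of Grin1 (Grin1os), Grin2b, Grin2c and Grin2d (among them Kdelr1, a protein-coding gene). The library protocol, Smart-seq2, does not mark strand, so reads from such pairs cannot be told apart, and this bears most on Grin2d, whose values were low.

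Promoter windows in RefSeq (GRCm38.p6, 300 bases each) were matched for 6 of the 10 genes. The 3 shown here belong to genes that were higher in TRN nuclei with Spp1 but not Ecel1 found than in those with Ecel1 but not Spp1, on at least 13 of 15 plates. They are written 5′ to 3′ on the strand of the gene, and capitals mark GGGCGG or its reverse complement CCGCCC, the core of a GC box. The windows are chr2:25319138-25319437 (Grin1, minus strand), chr11:115267194-115267493 (Grin2c, minus strand) and chr4:125490446-125490745 (Grik3, plus strand).
Grin1: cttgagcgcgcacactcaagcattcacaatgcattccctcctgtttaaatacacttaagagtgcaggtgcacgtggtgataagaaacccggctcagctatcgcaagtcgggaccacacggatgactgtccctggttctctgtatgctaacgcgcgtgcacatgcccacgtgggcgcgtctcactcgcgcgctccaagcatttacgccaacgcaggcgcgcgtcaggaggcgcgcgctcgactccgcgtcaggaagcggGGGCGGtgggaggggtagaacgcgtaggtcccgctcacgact
Grin2c: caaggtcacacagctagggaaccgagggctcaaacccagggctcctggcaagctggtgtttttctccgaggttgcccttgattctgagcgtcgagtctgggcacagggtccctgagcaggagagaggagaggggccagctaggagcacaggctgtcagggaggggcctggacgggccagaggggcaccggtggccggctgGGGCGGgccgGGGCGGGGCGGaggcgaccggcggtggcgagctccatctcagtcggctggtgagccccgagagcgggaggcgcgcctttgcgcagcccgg
Grik3: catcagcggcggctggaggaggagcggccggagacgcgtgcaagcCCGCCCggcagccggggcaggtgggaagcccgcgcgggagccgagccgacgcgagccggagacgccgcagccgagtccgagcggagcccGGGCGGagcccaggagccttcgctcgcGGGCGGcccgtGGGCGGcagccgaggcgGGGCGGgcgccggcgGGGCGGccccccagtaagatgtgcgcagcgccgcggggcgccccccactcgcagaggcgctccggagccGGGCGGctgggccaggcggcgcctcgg
Counting both strands and overlapping matches, the motif occurred 1 time in the Grin1 window, 3 times in that of Grin2c and 7 times in that of Grik3. It occurred 2 times in the Grik4 window and was not among the letters of the Grik2 and Grin2d windows. Of all 32851 promoter windows of this length, 35.7% held it. No binding or methylation was measured in the series, so the sequences are a description only.

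Values are TPM, transcripts scaled to a fixed total per nucleus, which are scaled per gene length, so levels of different genes can be compared within a nucleus. TPM keep no read count, so depth is unknown and the number of detected genes (TPM above 0) stands in for it. Median detected genes per group ran from 2426 in unselected TRN nuclei to 6654 in Patch-seq. Since no animal is named, each group counted as 1 sample, no test across samples was possible, and no p-value was computed. The plate, as named in the column headers, was used to show spread: ranges cover plates with at least 10 nuclei of the class, or at least 5 of each kind where Spp1-only and Ecel1-only nuclei of 1 plate were set side by side. In each comparison the log2 ratio of the mean TPM was taken after adding 1 TPM to both means, and a gene was counted as past 2-fold where it reached a mean of 1 TPM in either set. The 3 tables were deposited separately, so levels set across them are descriptions.

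Clusters were named from marker genes. Of the 1447 nuclei of the TRN plates, 54% were GABAergic neuron-like and 13.8% thalamic glutamatergic neuron-like. Of the nuclei sorted on GFP, 40.2% were GABAergic neuron-like, with 98 nuclei from hippocampus, 120 from somatosensory cortex and 14 from striatum among them. In 4 of the 5 GABAergic clusters of the TRN plates, each of the 4 TRN markers Six3, Isl1, Meis2 and Pvalb was found in at least 50% of nuclei. The remaining cluster (cluster 8, 17.3% of the TRN GABAergic nuclei) reached this for 0 of 4, with Six3 in 28.1% and Pvalb in 16.3% of its nuclei, so the label TRN GABAergic does not rest on these markers there. Its leading genes were Baiap3, Calb2 and Otof, and results are also given without it where leaving it out turned a direction or ended a call. A further neuronal cluster, with 3.32% of the nuclei of the TRN plates, had all 4 TRN markers in at least 50% of its nuclei. Only 2 of 4 GABAergic markers reached this share there, so it was left out of the TRN GABAergic nuclei.

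**Figure D1:**
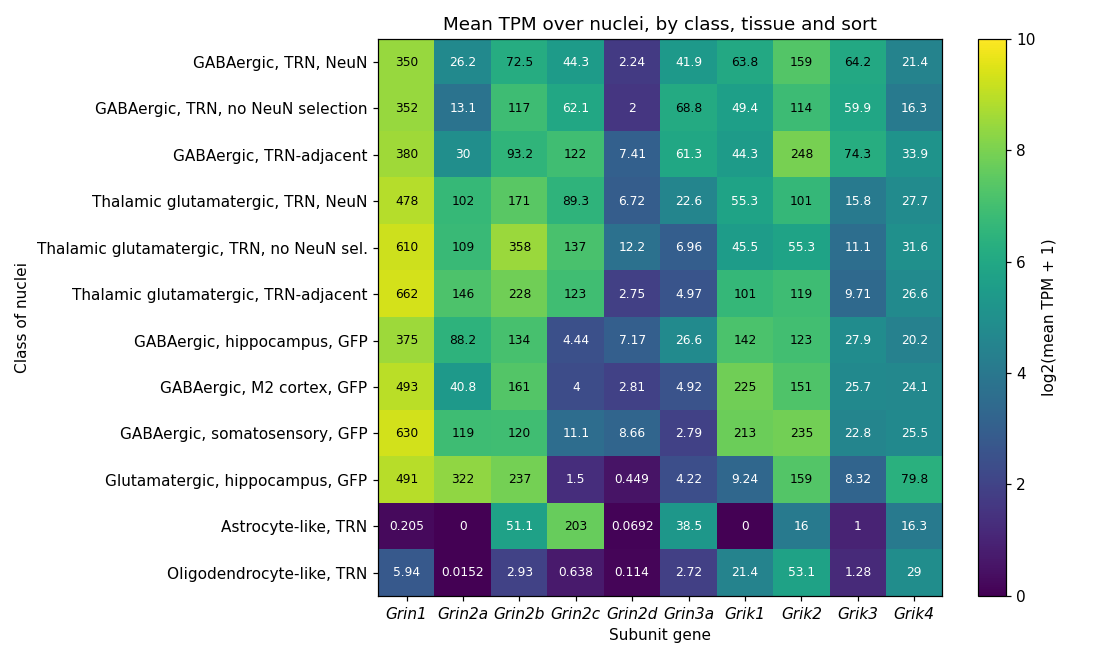
Mean TPM over nuclei of each subunit gene (columns) in 12 sets of nuclei (rows), coloured by log2(mean TPM + 1) with the mean printed in each cell. Grin1 was above 300 TPM in every neuronal set shown, Grin2c was high in TRN-plate neurons and astrocyte-like nuclei and at or below 11.1 TPM in the other neuronal sets, and Grik3 was highest in TRN and TRN-adjacent GABAergic nuclei.

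Grin1 was the most abundant of the 10 genes in each neuronal set of the plot by class. Its mean was 350.9 TPM in TRN GABAergic nuclei, found in 96.9% of them (95% Clopper-Pearson interval 95.5 to 98%, counting error only), and 515.5 TPM in thalamic glutamatergic nuclei, where 100% had it. Among the oligodendrocyte-like nuclei of the TRN plates Grin1 was found in 2.68% with a mean of 5.88 TPM. In 80 astrocyte-like nuclei Grin1 was found in 1 (mean 0.203 TPM). These glial nuclei had fewer detected genes, with medians of 1990.5 and 2160.5 against 4800.5 in TRN GABAergic nuclei.

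The astrocyte-like nuclei held Grin2c nearly without Grin1. Their mean Grin2c was 201.05 TPM and 61.2% had it (49.7 to 71.9%), beside 49.4 TPM in TRN GABAergic and 103.02 TPM in thalamic glutamatergic nuclei. The 43 astrocyte-like nuclei of the adjacent tissue repeated this, with 233.07 TPM of Grin2c and 0 TPM of Grin1. Grin2a was listed at 0 in all 80 astrocyte-like TRN nuclei, which allows a share of up to 3.75%. Oligodendrocyte-like nuclei had little Grin2c (0.632 TPM) and kept kainate subunits, with Grik2 at 52.8 TPM in 22.5% of nuclei and Grik4 at 28.7 TPM in 10.7%.

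Being found is not the same as being abundant. Grik3 was found in 33.6% of oligodendrocyte-like nuclei, but at 3.77 TPM where found, compared with 76.7 TPM where found in TRN GABAergic nuclei.

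In thalamic glutamatergic nuclei of the TRN plates every NMDA subunit among the 10 genes except Grin3a had a higher mean than in TRN GABAergic nuclei. Grin3a and Grik3 were past 2-fold higher in the GABAergic nuclei. Past 2-fold, 2 of the 10 genes were higher in TRN GABAergic nuclei, where 12% of 15214 genes were, and 4 were lower, where 11.4% of all genes were. In either direction, 23.4% of all genes were past 2-fold. The median log2 ratio was -0.53 over the 10 genes and -0.01 over all genes tested. The comparison could be made on 8 plates that held both classes, all NeuN-sorted. On all 8, Grin3a and Grik3 were higher and Grin1, Grin2a and Grin2b lower in the GABAergic nuclei. Of all genes, 7.64% were higher on every plate and 6.3% lower. Median detected genes were close, 4800.5 and 4972.

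**Figure D2:**
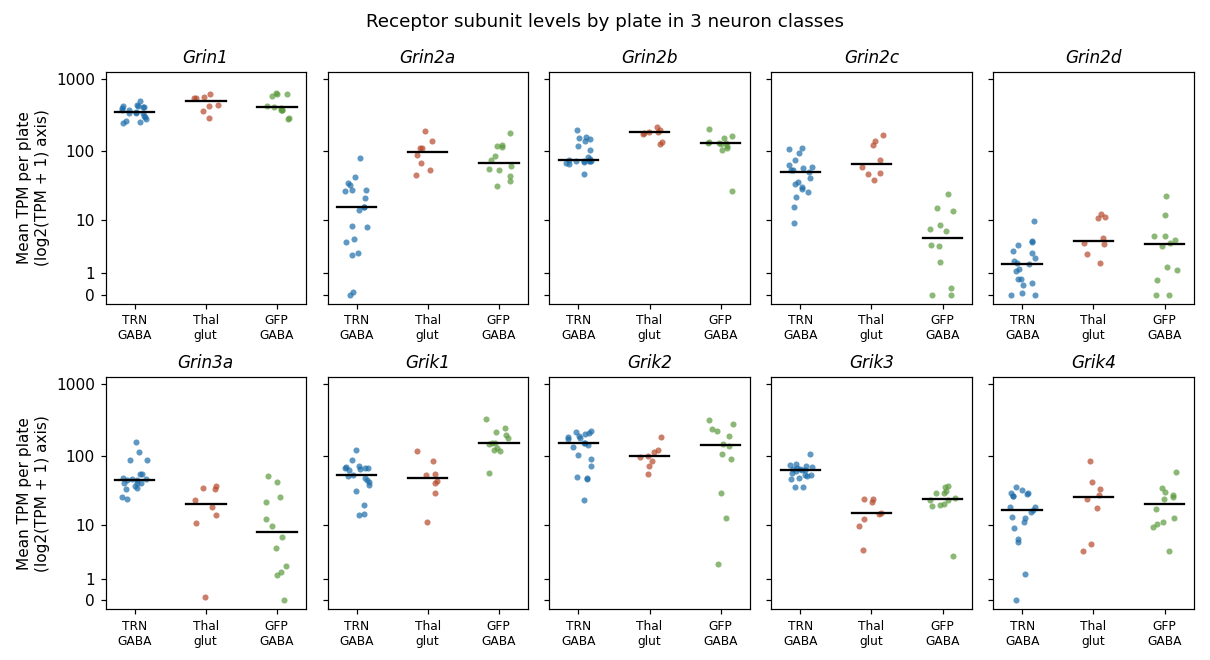
Mean TPM per plate on a log2(TPM + 1) axis for each gene in TRN GABAergic (19 plates), thalamic glutamatergic (8) and GFP-sorted GABAergic nuclei (12). Each point is a plate and the bar is the median over plates. For Grik3 all 19 TRN GABAergic points lie above all 8 thalamic ones, and for Grin2a 18 of 19 lie below.

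Grin2a, the subunit of fast NMDA currents, had plate means of 0 to 79.2 TPM (median 15.7, 19 plates) in TRN GABAergic nuclei and 46 to 190 TPM (median 97.9, 8 plates) in thalamic glutamatergic nuclei. The 2 sets overlapped in 1 TRN plate. The log2 ratio was -2.16 over all nuclei and ran from -2.62 to -1.49 over the 8 shared plates. Grin2a was found in 23.1% of TRN GABAergic (20.2 to 26.3%) and 75.4% of thalamic nuclei (68.8 to 81.2%).

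Grin2b, the subunit of slower currents, had plate means of 46.6 to 196.3 TPM in TRN GABAergic and 123.6 to 214.02 TPM in thalamic nuclei. Its overall means were 85.3 and 224.9 TPM, a log2 ratio of -1.39. The thalamic mean lay above every thalamic plate mean. It also took in 57 unselected nuclei from plates with fewer than 10 thalamic nuclei, which the range does not cover. Both classes had it in over 90% of nuclei (92.8% and 99%), and the level differed by more than the share found. As the mean of plate means, over 19 GABAergic and 8 thalamic plates, the ratio was -0.82, short of 2-fold. On the 8 plates that held both classes it ran from -1.41 to -0.80, with a median of -1.31.

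Grin2c had means of 49.4 and 103.02 TPM (log2 ratio -1.05), with plate means of 9.1 to 110.8 and 38.1 to 165.3 TPM. It was lower in the GABAergic nuclei on 6 of 8 plates only. The ratio fell short of 2-fold as the mean of plate means (-0.75), without cluster 8 (-0.78), with nuclei chosen by genes alone (-0.90), with a pseudocount of 10 TPM (-0.93), among nuclei with 3000 to 7000 detected genes (-0.93), with the deposited scaling (-0.96), without plate X012116TRNp6 (-0.98) and without plate X102816_TRNpA (-0.97). Grin2d was scarce in both classes, at 2.17 and 8.3 TPM, found in 9.72% and 28.1% of nuclei. Its log2 ratio of -1.55 became -0.59 with a pseudocount of 10 TPM and -0.69 as the difference of mean log2(TPM + 1).

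Grin3a ran against the other NMDA genes among the 10. Its plate means were 24.9 to 156.02 TPM (median 46.6) in TRN GABAergic nuclei and 0.113 to 37.6 TPM (median 21.3) in thalamic nuclei, and 15 of 19 TRN plates lay above all thalamic plates. The overall means were 49.5 and 18.1 TPM (log2 ratio 1.4), and on the shared plates the ratio ran widely, from 0.13 to 5.12. The difference appeared under both sorts: 41.9 against 22.6 TPM in NeuN-sorted nuclei and 68.8 against 6.96 TPM in unselected nuclei.

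Grik3 separated the 2 classes on every plate. Its plate means were 36 to 105.8 TPM in TRN GABAergic and 3.99 to 24.7 TPM in thalamic nuclei, with no overlap. The overall means were 63 and 14.4 TPM, a log2 ratio of 2.05 (1.3 to 3.99 on the shared plates).

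Grik2, the most abundant kainate subunit in both classes, had 146.1 and 88.1 TPM (log2 ratio 0.72, higher on 7 of 8 plates). Grik1 (59.7 and 52.5 TPM) had plate ratios on both sides of 0. Grik4 (19.9 and 28.8 TPM) also did, and its log2 ratio of -0.51 became -1.33 without cluster 8 and 0.28 with nuclei chosen by genes alone. The Grik1 ratio of 0.18 was -0.03 without cluster 8.

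Against GFP-sorted GABAergic nuclei, TRN GABAergic nuclei had more Grin2c, Grin3a and Grik3 and less Grin2a and Grik1. The GFP-sorted mean gave the 4 regions equal weight. Past 2-fold, 3 genes were higher in TRN nuclei (10.6% of 15963 genes were) and 2 were lower (17.6% were), together 5, while 28.2% of all genes were past 2-fold in either direction. In 0 of the 10 did all TRN plates lie above all GFP plates (0.363% of all genes did) or below them (0.345%). The median log2 ratio was -0.12 over the 10 genes and -0.19 over all genes. With the scaling of the TRN columns as deposited, the median of all genes shifted to -0.47 and Grik2 and Grik4 changed sign (from 0.19 to -0.12 and from 0.11 to -0.18), the 5 genes past 2-fold stayed so and Grin2d joined them (-1.17), so that 3 were higher and 3 lower. Detected genes had medians of 4800.5 and 4261, and plates of the 2 sets never overlap in tissue, so tissue, sort and plate cannot be told apart. Marker genes of interneurons from the medial ganglionic eminence summed to 530 TPM in the GFP-sorted GABAergic nuclei, beside 45.2 TPM in the TRN GABAergic nuclei.

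Grin2c had plate means of 9.1 to 110.8 TPM (median 50) in TRN GABAergic nuclei and 0 to 24.6 TPM (median 5.38) on the 12 GFP plates. Of the 19 TRN plates 16 lay above every GFP plate. The means of 49.4 and 11 TPM gave a log2 ratio of 2.07. Grin2c was found in 48.7% of TRN GABAergic nuclei. For GFP-sorted GABAergic nuclei the mean of the regional shares, each region weighted equally, was 10.9%. The highest GFP plate was the striatal one, with 14 nuclei of which 3 held Grin2c; without the striatum the ratio was 2.75. In the glutamatergic neuron-like nuclei of the hippocampal GFP plates Grin2c was at 1.5 TPM.

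Grin3a had plate means of 0 to 52.2 TPM (median 8.12) on the GFP plates. Every TRN plate lay above the GFP-sorted mean of 8.58 TPM (log2 ratio 2.40), but only 6 of 19 lay above every GFP plate. GFP-sorted nuclei were not uniform. Their cluster 9 (41 nuclei, 33 from hippocampus) had 36.6 TPM of Grin3a in 43.9% of nuclei, cluster 3 had 17.7 TPM and cluster 1, the largest, 2.74 TPM in 5.56%. By region the means were 26.6 TPM in hippocampus, 4.92 in M2 cortex and 2.79 in somatosensory cortex, and Grin3a was listed at 0 in all 14 striatal nuclei, which allows a share of up to 21.4%.

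Grik1 was lower and Grik3 higher in TRN than in GFP-sorted GABAergic nuclei. Grik1 had plate means of 14.3 to 120.3 TPM (median 54) in TRN and 57.6 to 326.4 TPM (median 152.03) on the GFP plates (log2 ratio -1.40). All 19 TRN plates lay below the GFP-sorted mean of 159.5 TPM, but only 10 of 19 lay below every GFP plate. Grik3 had plate means of 36 to 105.8 TPM in TRN and 3.07 to 37.7 TPM in GFP-sorted nuclei (log2 ratio 1.62), and 17 of 19 TRN plates lay above every GFP plate. Grin2a was lower in TRN nuclei (22.5 against 77.2 TPM, log2 ratio -1.74), with 15 of 19 TRN plates below every GFP plate. Grin1, Grin2b, Grin2d, Grik2 and Grik4 were within 2-fold, with log2 ratios of -0.34, -0.37, -0.91, 0.19 and 0.11. The last 3 depended on the processing. Without the striatum, which is 1 plate (strP12), they were -1.19, -0.21 and -0.21. Without plate X061616p1 Grik2 was -0.06 and Grik4 -0.05, and without plate X102816NP3 Grik4 was -0.01. Grin2d passed 2-fold without plate scxP9 (-1.09) and without plate X102816NP2 (-1.03). Grik2 was past 2-fold as the difference of mean log2(TPM + 1) (1.65) and -0.34 with nuclei chosen by genes alone. Grik4 was -0.71 without cluster 8, with a mean of 10.9 TPM in the TRN nuclei.

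**Figure D3:**
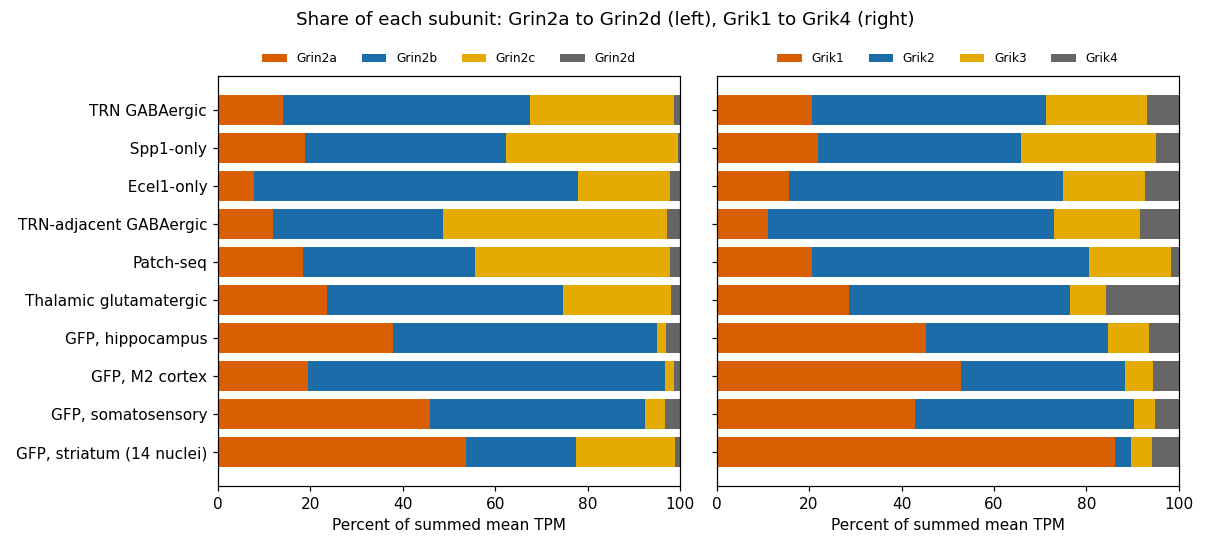
Percent of the summed mean TPM of Grin2a to Grin2d (left) and of Grik1 to Grik4 (right) taken by each gene, in 10 sets of nuclei. Grin2c takes 20 to 48.3% in the TRN, TRN-adjacent, Patch-seq and thalamic sets and 1.9 to 4.28% in the hippocampal and cortical GFP-sorted sets.

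Grin2b made up the largest part of Grin2 transcripts in TRN GABAergic nuclei, 53.5% of the summed TPM of Grin2a to Grin2d (32.5 to 88.7% over 19 plates, SD 15), followed by Grin2c with 31%, Grin2a with 14.1% and Grin2d with 1.36%. Grin2b took about the same share in thalamic glutamatergic nuclei (51.1%, 33.4 to 68.6% over 8 plates) and in GFP-sorted GABAergic nuclei (54.2%, 23.8 to 83.3% over 12 plates). The sets differed in what made up the rest. Grin2a and Grin2c took 23.6% and 23.4% in thalamic nuclei and 37.9% and 5.41% in GFP-sorted nuclei. The summed level also differed, 159.3 TPM in TRN GABAergic, 203.5 TPM in GFP-sorted and 440.3 TPM in thalamic nuclei. The thalamic sum included the unselected nuclei, which its plate ranges do not cover.

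Among GFP-sorted regions the Grin2a share was 19.6% in M2 cortex, 37.8% in hippocampus, 45.9% in somatosensory cortex and 53.6% in the 14 striatal nuclei. GABAergic nuclei of the TRN-adjacent tissue (42 nuclei) had the highest Grin2c share of the nuclear sets, 48.3%, with Grin2b at 36.9%. In hippocampal glutamatergic nuclei Grin2a (321.7 TPM) exceeded Grin2b (236.6 TPM), the reverse of the order in TRN GABAergic and thalamic nuclei.

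Grik2 made up 50.6% of the summed TPM of Grik1 to Grik4 in TRN GABAergic nuclei (13.8 to 71.6% over 19 plates, SD 13), with Grik3 at 21.8%, Grik1 at 20.7% and Grik4 at 6.9% (3.83% without cluster 8). In thalamic nuclei Grik2 held a similar share (47.9%), but Grik3 held 7.85% and Grik4 15.7%. In GFP-sorted nuclei Grik1 held 49% and Grik3 6.1%. Grik5, the other high-affinity subunit, which was not among the 10, had 27.4 TPM in TRN GABAergic nuclei, and with it in the sum Grik2 held 46.2%.

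**Figure D4:**
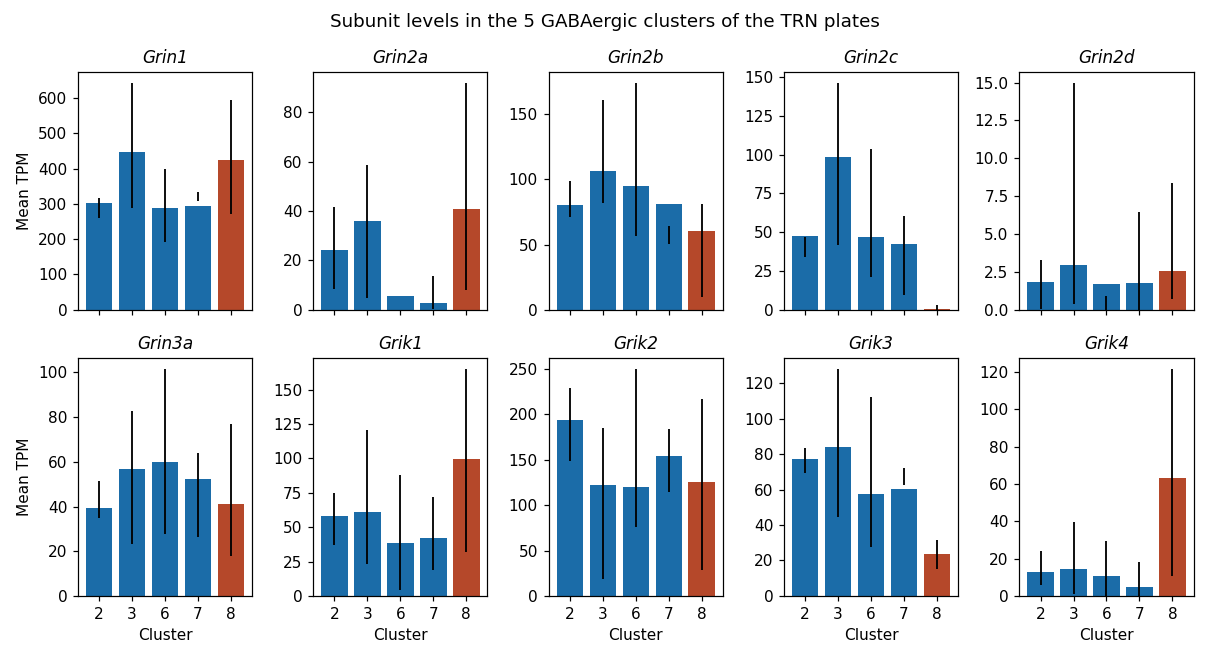
Mean TPM over nuclei (bars) in the 5 GABAergic clusters of the TRN plates, with lines from the lowest to the highest plate mean (plates with at least 10 nuclei, so a bar can lie outside its line). Cluster 8, in red, had 0.434 TPM of Grin2c and 63.3 TPM of Grik4, while the other clusters had 42.3 to 98.4 and 4.52 to 14.2 TPM.

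The 5 GABAergic clusters of the TRN plates differed most in Grin2a, Grin2c and Grik4, although the 10 genes were left out of the clustering. These values describe clusters built from the same nuclei. Cluster 8, without the TRN markers, had 0.434 TPM of Grin2c, found in 4 nuclei (2.96%, 0.813 to 7.41%), while the 4 clusters with TRN markers had 42.3 to 98.4 TPM, found in 33.8 to 74.6%. All 8 plates with at least 10 cluster 8 nuclei had a Grin2c mean of 3.37 TPM or less. Cluster 8 had the most Grin2a (40.7 TPM, against 2.88 to 35.8), although Spp1 was found in 2.96% and Ecel1 in 43.7% of its nuclei. It also had the least Grik3 (23.7 TPM, against 57.4 to 84.3) and the most Grik4 (63.3 TPM, against 4.52 to 14.2) and Grik1 (99.5 TPM, against 38.8 to 61.1). Its Grin1 (425.07 TPM) and detected genes (median 4764) lay within the range of the others.

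Among the clusters with TRN markers, Grin2a was 24.4 and 35.8 TPM in clusters 2 and 3, in which Spp1 was found in 64.1% and 69.8% of nuclei, and 5.61 and 2.88 TPM in clusters 6 and 7, in which Ecel1 was found in 56.3% and 58%. Cluster 3 had the highest Grin2c, 98.4 TPM. Without cluster 8 the TRN GABAergic means were 18.7 TPM for Grin2a, 59.6 for Grin2c, 71.2 for Grik3 and 10.9 for Grik4.

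Spp1, which encodes a secreted phosphoprotein, and Ecel1, which encodes a membrane peptidase, mark TRN neurons at opposite ends of the gradient the study describes. TRN GABAergic nuclei were divided into those with only Spp1 found (32.4%) and those with only Ecel1 found (35%), and 15 plates had at least 5 of each. Grin2a and Grin2c were higher in the Spp1-only nuclei past 2-fold (7.52% of 14988 genes were higher past 2-fold), and 0 of the 10 were lower past 2-fold (11.2% were, and 18.7% in either direction). The median log2 ratio was 0.21 over the 10 genes and 0.00 over all genes. Grin1 and Grin2c were higher on all 15 plates, where 0.681% of all genes were higher on every plate, and 0 were lower on all 15 (0.587% were). Spp1-only nuclei had more detected genes, a median of 5269 against 4618.5. The part of this in the results was not tested. A window of 3000 to 7000 detected genes, which held both medians, does not match the 2 kinds in detected genes. Within it the log2 ratios of Grin2a and Grin2c were 1.79 and 1.66.

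**Figure D5:**
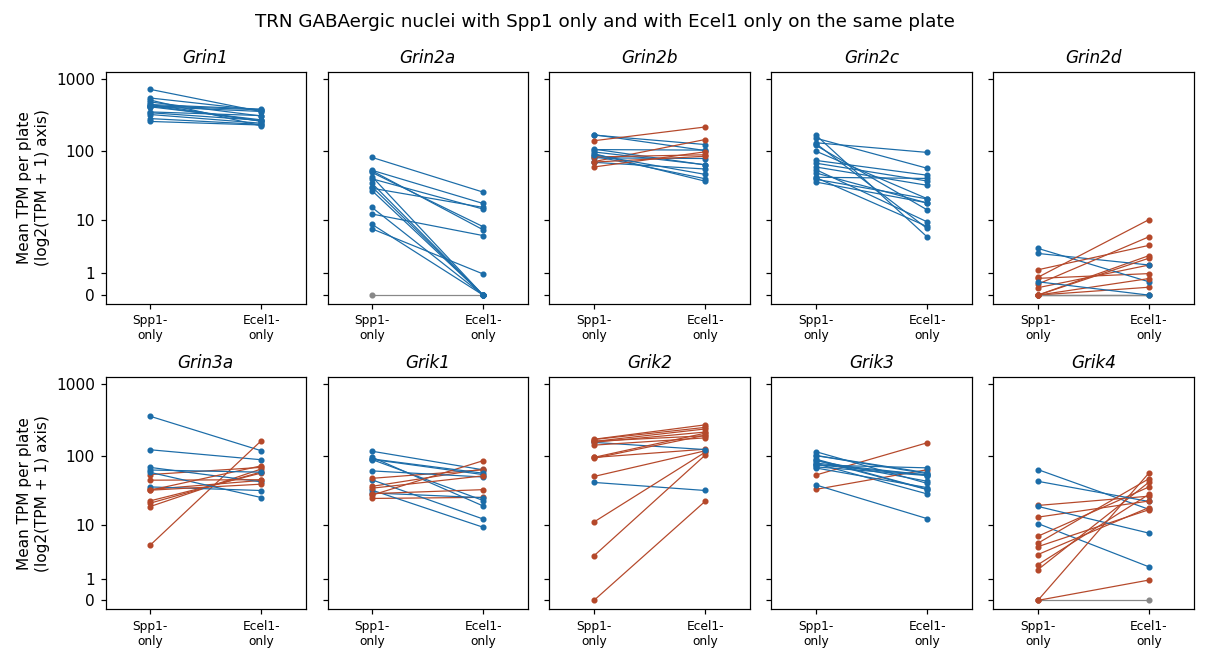
Mean TPM per plate, on a log2(TPM + 1) axis, in Spp1-only and Ecel1-only TRN GABAergic nuclei of the same plate, joined by a line (15 plates, each with at least 5 nuclei of both kinds). Blue lines are higher in Spp1-only nuclei, red lines are lower and grey lines are equal. All 15 lines for Grin1 and Grin2c are blue, 14 of 15 for Grin2a are blue, and 13 of 15 for Grik2 are red.

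Grin2a had plate means of 0 to 80.8 TPM (median 30.9) in Spp1-only nuclei and 0 to 25.9 TPM (median 0.965) in Ecel1-only nuclei. It was higher in Spp1-only nuclei on 14 plates and at 0 in both kinds on the remaining plate, and 8 plates had under 1 TPM in Ecel1-only nuclei. Over all nuclei the means were 38.3 and 9.60 TPM (log2 ratio 1.89), found in 40.7% and 9.85%. Cluster 8 held 58 of the Ecel1-only nuclei and 3 of the Spp1-only nuclei, and without it the ratio was 2.95.

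Grin2c had plate means of 36.2 to 165.8 TPM (median 67) in Spp1-only and 5.44 to 95 TPM (median 20.7) in Ecel1-only nuclei, and 10 of 15 Ecel1-only plates lay below every Spp1-only plate. The overall means were 75.2 and 24.5 TPM (log2 ratio 1.58), found in 73.5% and 31.4% of nuclei, and the ratio was 1.28 without cluster 8. Astrocyte-like nuclei also held Grin2c: the 8 astrocyte markers summed to 646.1 TPM in Spp1-only and 456.1 TPM in Ecel1-only nuclei, 2 of 8 found in at least 50% of nuclei in each, and their part in the difference was not tested.

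Grin1 was 405.7 TPM in Spp1-only and 306.6 TPM in Ecel1-only nuclei, with plate means of 257.2 to 720 and 222.95 to 382.3 TPM. The log2 ratio was 0.40 and ran from 0.17 to 1.19 over the 15 plates. Grin2b had similar means in the 2 kinds, 88.1 and 85.7 TPM, a log2 ratio of 0.04 (-0.05 without cluster 8), with plate ratios from -1.02 to 1.27. As Grin2a and Grin2c differed and Grin2b did not pass 2-fold, the Grin2b share was 43.5% in Spp1-only nuclei (34.2 to 62.2% over plates) and 70% in Ecel1-only nuclei (50.2 to 94.9%). Grin2d (0.905 and 2.61 TPM) was found in 5.14% and 12.8% of nuclei, and its log2 ratio of -0.92 was past 2-fold without plate X102816NP2 (-1.20) or X102816NP3 (-1.10). Grin3a (48.4 and 59.6 TPM, log2 ratio -0.29) had plate ratios from -4.82 to 1.59.

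Of the kainate genes Grik2 was lower in Spp1-only nuclei, 125.8 against 181.5 TPM (log2 ratio -0.53), on 13 of 15 plates, with plate means of 0 to 171.7 and 22.7 to 272.8 TPM. Grik3 was higher, 83.6 against 53.9 TPM (log2 ratio 0.62), also on 13 of 15 plates. Grik3 held 29.2% of the summed Grik1 to Grik4 TPM in Spp1-only and 17.6% in Ecel1-only nuclei, and Grik2 held 43.9% and 59.3%. Grik1 (62.8 and 48 TPM, log2 ratio 0.38) and Grik4 (14.1 and 22.6 TPM, log2 ratio -0.64) had plate ratios in both directions, and the Grik4 ratio was 0.50 without cluster 8, -1.02 without plate X102816NP4 and -1.09 as the mean of plate means.

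The sorts were compared apart from each other. In NeuN-sorted nuclei the log2 ratios were 1.85 for Grin2a, 1.63 for Grin2c, 0.94 for Grik3 and -0.41 for Grik2. In unselected nuclei (58 and 98) they were 1.5, 1.71, -0.08 and -1.43. Grin2a and Grin2c thus had similar ratios under both sorts, whereas the Grik3 ratio was near 0 and the Grik2 ratio farther from 0 in unselected nuclei. Whether the sorts differ in these ratios was not tested.

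Within single clusters the contrast was uneven. In cluster 2 Grin2a was 42.4 against 3.24 TPM and Grin2c 51.4 against 31.1 TPM. In cluster 6 (19 Spp1-only, 77 Ecel1-only) Grin2a was 16.4 TPM against 0 in all 77 nuclei, which allows a share of up to 3.9%, and Grin2c was 99 against 31.7 TPM. In cluster 3, with 16 Ecel1-only nuclei, the values were 42.5 against 32.3 TPM and 99.7 against 37.5 TPM. In cluster 7 (12 and 73) they were 1.29 against 2.82 TPM and 31.1 against 28.3 TPM, so neither gene was past 2-fold there. Grik2 was lower in Spp1-only nuclei in all 4 of these clusters, with log2 ratios of -0.62, -0.08, -1.07 and -2.16 in clusters 2, 3, 6 and 7.

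The 37 nuclei with both genes found had 7.63 TPM of Grin2a, near the Ecel1-only level, and 65.5 TPM of Grin2c, near the Spp1-only level. Nuclei with neither had 22.8 and 48 TPM, between the 2 kinds for both genes.

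Patch-seq samples of the TRN gave a separate set of cells. Of 95, 32 were Spp1-only and 26 Ecel1-only. Grin2a was 30.9 against 9.35 TPM (log2 ratio 1.63), found in 50% and 23.1%. Grin2c was 75.9 against 44 TPM (log2 ratio 0.77), Grin1 308.7 against 216.5 TPM (0.51) and Grik2 41.9 against 163.8 TPM (-1.94). These 4 had the direction of the sorted nuclei, and the Grin2c ratio stayed under 2-fold. Taken over all these samples, Grik4 (5.15 against 1.19 TPM, log2 ratio 1.49) and Grin2d (5.48 against 1.99 TPM, 1.12) were past 2-fold. Both pooled ratios ran opposite to those of the sorted nuclei (-0.64 and -0.92). Of the others Grik1 had a ratio of 0.99, Grin2b 0.6 and Grik3 0.18, and Grin3a was 24.7 TPM in both. The column names of 14 Spp1-only and 17 Ecel1-only samples had several forms, and no label makes these samples a batch. Their log2 ratios were 1.11 for Grin2a, 1.15 for Grin2c and -2.26 for Grik2. Among samples with a shared name prefix (14 and 8) the ratios were 1.67, 0.57 and -0.36. The Grik4 ratio was -0.50 in the former samples and 2.33 in the latter, and that of Grin2d 0.46 and 1.36.

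Patch-seq samples also carried markers of other cell types. The 8 oligodendrocyte markers summed to 5106 TPM over all 95, and 3583 TPM in Spp1-only and 2216 TPM in Ecel1-only samples. The 8 microglia markers summed to 801.4 and 776.5 TPM and the 8 astrocyte markers to 651.9 and 348.4 TPM. Their part in the Grin2c and Grik2 values was not tested. Over all Patch-seq samples Grin2c took 42.1% of Grin2 TPM and Grin2b 37.3%, and Grik4 was at 2.94 TPM, beside 19.9 TPM in sorted TRN GABAergic nuclei. In Spp1-only and Ecel1-only Patch-seq samples the Grin2b share was 37.2% and 44.1%, and the Grin2c share 42.4% and 44.5%. In sorted nuclei of these kinds the shares were 43.5% and 70% for Grin2b and 37.1% and 20% for Grin2c.

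Single nuclei were next described by which subunits were found together. A median of 6 of the 10 genes was found per nucleus, both in TRN GABAergic nuclei (1 to 9) and in thalamic glutamatergic nuclei (2 to 9). Grin2a and Grin2b were found in the same nucleus in 21.5% of TRN GABAergic and 75.4% of thalamic nuclei. Grin2b without Grin2a was found in 71.4% and 23.6%, and Grin2a without Grin2b in 1.66% and 0%. Among TRN nuclei the share with both was 38.7% in Spp1-only and 9.12% in Ecel1-only nuclei. Grin3a was found with Grin2b in 50.4% of TRN GABAergic and 24.6% of thalamic nuclei. Shares found depend on depth, which is unknown, and a gene not found may have been missed.

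Within TRN GABAergic nuclei of the same plate, correlations between the members were weak. The median over 19 plates of Spearman's rho was largest for Grin2c with Grik3 (0.222) and lowest for Grin2a with Grik2 (-0.139), and both took either sign across plates. Values near 0 are usual in sparse data, and depth is shared by all genes of a nucleus.

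Of the 16 genes listed as partners (other subunits, auxiliary proteins and postsynaptic scaffold and signalling proteins), 15 were measured. In TRN GABAergic against thalamic glutamatergic nuclei 4 were higher and 4 lower past 2-fold, beside 12% and 11.4% of all genes. Neto2, an auxiliary subunit of kainate receptors, was higher (63.8 against 8.05 TPM, log2 ratio 2.84, on 8 of 8 plates), as were the scaffold gene Dlg2 (136.4 against 31.6 TPM, 2.08, on 8 of 8), Grin3b (1.2) and Nos1 (1.19), both below 3 TPM in either class. Dlg4, which encodes the scaffold PSD-95, was lower (31 against 101.4 TPM, log2 ratio -1.68), and so were Camk2a (-1.08), Shank1 (-1.08) and Shank3 (-2.54), each on 8 of 8 plates. The median log2 ratio of the 15 was -0.52.

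Against GFP-sorted nuclei the partners past 2-fold were near the share of all genes (10.6% higher and 17.6% lower). Of these, 2 were higher, Neto2 (63.8 against 27.5 TPM, log2 ratio 1.18) and Grin3b (2.22 against 0.37 TPM, 1.23). Another 2 were lower, Neto1 (2.66 against 20.6 TPM, -2.56), the other auxiliary subunit, and Nos1 (2.12 against 8.18 TPM, -1.56). In Spp1-only against Ecel1-only nuclei, 7.52% of all genes were higher and 11.2% lower past 2-fold. There Shank2 (86.2 against 34 TPM, log2 ratio 1.32, on 15 of 15 plates) and Grin3b (2.55 against 0.652 TPM, 1.10) were higher. Dlg1 (2.83 against 19.4 TPM, -2.41, lower on 11 of 15) and Nos1 (0.383 against 3.24 TPM, -1.62) were lower. Grin3b was higher on 7 and lower on 5 plates, and Nos1 was lower on 6 and higher on 3.

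For each member the genes with the most similar pattern were sought over 20 groups of nuclei (class by tissue and sort, at least 20 nuclei each), by Pearson's r of log2(mean TPM + 1) among 17693 genes. The groups share libraries and differ in depth, neuronal groups and glial groups stand apart, and r is given as a description. Among the genes most like Grin1 was Rusc1 (r = 0.986), and Grin2a was most like Add2 (0.959) and Erc2 (0.953) and Grin2b like Chd3 (0.945) and Slitrk1 (0.942). Grin2c was most like Plekhd1 (0.88) and Itga6 (0.879), Grin2d like Gm13446 (0.885) and Dleu7 (0.847), and Grin3a like Sdsl (0.852) and Pln (0.847). Grik1 was most like Cox6a2 (0.888) and Rnf214 (0.875), Grik2 like Lrrtm3 (0.892) and Gm3558 (0.887), Grik3 like Cabp1 (0.933) and Nyap2 (0.899), and Grik4 like Ufc1 (0.903) and Wasl (0.88). No member was among the most similar genes of another member.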

How the data were processed

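Per the labels' protocols, nuclei from a sucrose gradient were sorted and sequenced with a modified Smart-seq2 protocol. The submitters' processing notes name Seurat 2.2.0, TopHat2 2.0.10, Bowtie and RSEM and the mm10 build, with no role given. The authors deposited TPM for the GFP-sorted and Patch-seq samples, and natural log values (ln of 1 plus scaled TPM) for the TRN and TRN-adjacent samples; here the logarithm was undone and each column rescaled to 1000000. All 236907 resulting values under 2 TPM lay within 0.1 steps of whole multiples of 0.01, as deposited for the other samples. All columns matched a sample, and no 2 columns were identical.

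The TRN and the GFP tables were clustered separately without the 10 members and their partners: 2000 variable genes, 30 principal components, 15 neighbours and Leiden clustering at resolution 1, the highest modularity of 20 starts. Over these starts the number of GABAergic nuclei ran from 736 to 824 in the TRN table. Values were present for 753 of 768 NeuN-sorted and 694 of 1249 unselected TRN samples, 168 from M2 cortex and 149 from somatosensory cortex. There were 782 TRN GABAergic nuclei (559 NeuN-sorted and 223 unselected), of which 253 were Spp1-only (195 and 58 by sort) and 274 Ecel1-only (176 and 98), 199 thalamic glutamatergic, 333 GFP-sorted GABAergic and 298 oligodendrocyte-like nuclei. Clusters 2, 3, 6, 7 and 8 held 198, 169, 142, 138 and 135 nuclei, and clusters 2 and 3 held 105 and 114 Spp1-only ones. A neuronal class needed 5 of 7 neuronal markers and a GABAergic one 3 of 4, each in at least 50% of nuclei. No doublet caller was run. Python 3.11.15, numpy 2.4.6, pandas 2.3.3, scikit-learn 1.9.0 and igraph 0.11.9 were used, and the ratio was tested on simulated data. The genes named are the 10 members, the partners past 2-fold and the 2 genes most like each member. Members, lists and comparisons were chosen with earlier results of these data known. Nuclei without values were not analysed here, and one listed partner and one gene with a similar pattern are not reported here.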

Additional observations from a re-analysis of the deposited data

How the results depend on the processing

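Of the 1340 values of single members' log2 ratios under alternative settings, 1329 stayed within 1 SD of the plates and 11 moved by more, and no ratio past 2-fold changed sign. The 1329 include values that could not move. Each ratio had 34 values with 1 plate left out, and GFP plates hold no nuclei of the TRN-only comparisons. The SD was also wide for some genes. In Spp1-only against Ecel1-only nuclei Grik4 went from -0.64 to 0.5 without the GABAergic cluster lacking TRN markers. With a plate SD of 2.27 this counted as within 1 SD. The count of members past 2-fold was 2 for Spp1-only against Ecel1-only nuclei, 4 with the difference of mean log2(TPM + 1) and 5 at 1.5-fold. Leaving out each plate in turn, counts ran from 2 to 3 there, from 5 to 6 against thalamic nuclei and from 5 to 6 against GFP-sorted nuclei, the Grin2b share from 52.4 to 55% and the Grik2 share from 49.7 to 51.4%. In the other alternatives the count against thalamic nuclei ran from 4 to 7 and that against GFP-sorted nuclei from 5 to 6. Grin2d fell on either side of 2-fold in several of them, for example -1.16 with a pseudocount of 0.1 TPM against GFP-sorted nuclei. Leaving out the GABAergic cluster without TRN markers was chosen after seeing the data. No paired analysis was possible because replicate numbers follow accession order and only name samples, and no test was made; ratios within plates were used as a description. The unknown depth limits every share of nuclei with a gene found.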
